A study of Mus musculus with 8 samples.

Results

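The miRNAs named miR-297, miR-466, miR-467 and miR-669 form a set of 35 guide strands among the 611 mouse miRNAs on an Agilent array. They were taken by name: every mouse miRNA with one of these 4 numbers, with any letter and with or without an arm (-3p or -5p). Star strands were left out, and the set was chosen with earlier results of these data known. miR-297 gave 2 members, miR-466 gave 14, miR-467 gave 7 and miR-669 gave 12, on 92 probes. The study measured miRNAs in primary mouse oligodendrocyte cultures as the cells aged, to find miRNAs of the oligodendrocyte lineage. Immature cells were sampled on day 0 (n = 3 arrays) and day 1 (n = 2 arrays), and mature cells on day 6 (n = 3 arrays). All groups were of strain C57BL/6J with genotype CNP-Cre, a Cre recombinase driven by the promoter of an oligodendrocyte lineage gene, and none received a treatment. After shaking, cells of every group grew in medium with B27, horse serum and thyroid hormones, so no group shows the cells as they are in the brain. The series text calls the samples independent and counts the immature days in culture differently from the sample labels, whose day numbers are used here. The sources used here do not give whether they came from separate animals, and the p-values then measure only the spread between these samples, which may be technical.

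A large intron of Sfmbt2, a gene that encodes a Polycomb group protein, holds in mouse and rat a long tandem array of miRNA hairpins that gives rise to most miRNAs of these 4 names. Sfmbt2 is imprinted and is expressed from the paternal copy in the mouse placenta and early embryo, where the cluster is best known. A miRNA guides an Argonaute protein to messenger RNAs that pair with its seed, bases 2 to 8 of the mature strand, and lowers their level and translation. Many mature strands of this set are runs of alternating bases, and their names are close variants of each other, so that a probe may also capture a near-identical strand. The signals below were therefore taken as signals of the named probes, uncertain between close copies, and no level of one miRNA was set against the level of another.

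The label of an Sfmbt2 cluster was checked against the places of the hairpins in the RefSeq gene table (assembly GRCm38.p6, used for neighbourhood only). For 26 members every hairpin of that name lay within Sfmbt2. For 5 members, miR-466i, miR-466j, miR-466k, miR-467f and miR-467g, the hairpin lay outside it. Both strands of miR-466f came from 4 hairpins, 3 within Sfmbt2 and 1 outside. The strands miR-466a-3p and miR-466a-5p could not be placed by name. The set is therefore a name family of which most, but not all, members belong to the Sfmbt2 intron. Some names match many hairpins: miR-669a matched 12, miR-467a 10 and miR-466b 8, and their sequences were not compared.

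Mature sequences of 4 members were matched by name in RefSeq (GRCm38.p6), all 4 from outside Sfmbt2. They are shown for their repeats of alternating bases, and because 1 of them was detected and the other 3 were not. Each runs 5′ to 3′ with the seed in capitals.
miR-467f: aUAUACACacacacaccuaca
miR-467g: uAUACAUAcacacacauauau
miR-466k: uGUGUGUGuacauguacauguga
miR-466j: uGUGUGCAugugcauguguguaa
They lie at chr11:69635419-69635439 on the minus strand (miR-467f), chr5:34732872-34732892 on the minus strand (miR-467g), chr3:85467396-85467418 on the plus strand (miR-466k) and chr10:60960802-60960824 on the plus strand (miR-466j). No 2 of them share a seed. The longest stretch of alternating A and C was 12 bases in miR-467f and 9 in miR-467g, and the longest stretch of alternating U and G was 9 bases in miR-466k and 7 in miR-466j. Runs of 8 alternating bases were searched on the printed strand as UGUGUGUG, GUGUGUGU, ACACACAC and CACACACA, which overlap each other. Of the 162 array miRNAs matched in RefSeq by name, 5 (3.09%) held such a run. These were miR-467f, miR-467g and miR-466k of the set, and miR-574-5p and miR-1187 outside it, whose sequences are printed to show how alike the repeats are.
miR-574-5p: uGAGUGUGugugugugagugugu
miR-1187: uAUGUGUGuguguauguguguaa
These 2 lie at chr5:64970328-64970350 on the plus strand (miR-574-5p) and at chr5:82798964-82798986 on the minus strand (miR-1187), and their longest stretches of alternating U and G were 13 and 11 bases.

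Most of the set gave no signal well above background in these cells. A probe was called detected on an array when at least 0.5 of its spots were well above background, and a miRNA when any of its probes was. Of the 35 members, 27 were detected on no array, 2 on 1 array, and 6 on 3 arrays or more. Of all 611 mouse miRNAs on the array, 199 were detected on 3 arrays or more, so most of these also fell short of that. Neither miR-297 member was detected. In the miR-466 group 4 of 14 were detected on any array, in the miR-467 group 2 of 7, and in the miR-669 group 2 of 12. By place, 5 of the 26 members with hairpins only within Sfmbt2 were detected on any array, against 2 of the 5 with a hairpin only outside. Of the 7 members named as 5p strands 1 was detected on any array, of the 4 named as 3p strands 1, and of the 24 with no named arm 6. None of the 4 star strands of these names on the array (miR-297a*, miR-467a*, miR-467b* and miR-467e*) was detected.

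Signals are given as scaled intensities, the deposited background-subtracted intensities with each array divided by its 75th percentile over 91 probes detected on all arrays. On 7 arrays, day 0 replicate 1 left out, the highest scaled intensity of the 27 undetected members lay between -1.12 (miR-669i) and 16.1 (miR-669a), with a median of 1.79, and for 19 of them it lay below 5. miR-669a, the name with the most hairpins, had scaled intensities of 22.8, 13.0 and 10.8 at day 0, of 13.7 and 7.56 at day 1, and of 16.1, 9.14 and 14.5 at day 6, all not well above background. miR-466c-5p was detected on day 1 replicate 1 alone, with scaled intensities of -24.9, 12.05 and 9.43 at day 0, of 17.1 and 18.4 at day 1, and of 7.41, 10.7 and 12.3 at day 6. After scaling its day 1 arrays stood above the arrays of both other days, but replicate 2 was not well above background. Before scaling, day 0 replicate 2 (15.27) read above day 1 replicate 2 (15.24). On every array miR-466c-5p lay below the floor that is given with the fit below. miR-466g was also detected on day 1 replicate 1 alone, with scaled intensities of 19.0, 7.95 and 3.46 at day 0, of 16.2 and 9.38 at day 1, and of 2.92, 4.94 and 3.38 at day 6. Its day 1 arrays stood above all day 6 arrays, and day 0 replicate 1 stood above both.

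**Figure D1:**
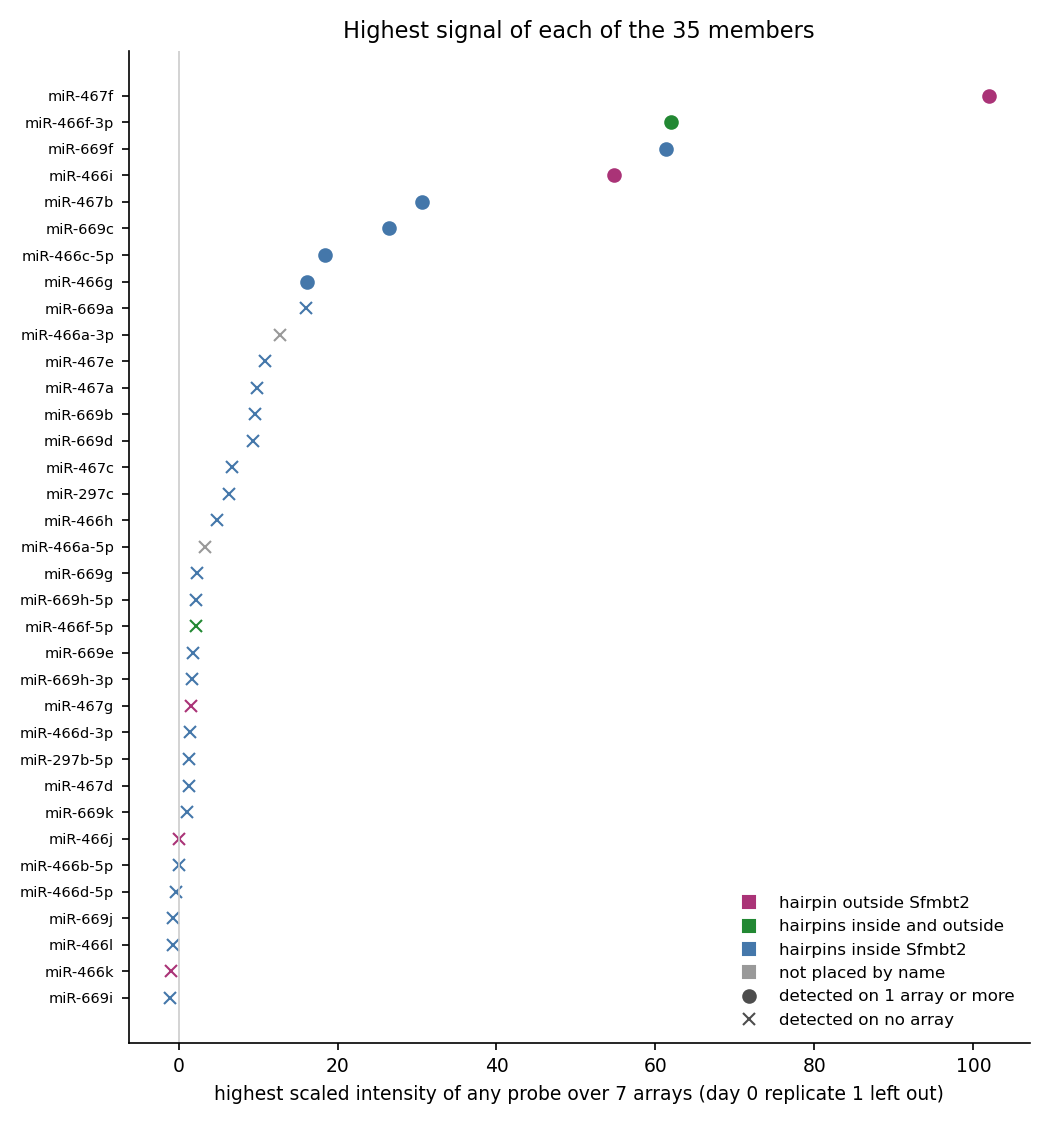
Highest scaled intensity of any probe for each of the 35 members over 7 arrays, day 0 replicate 1 left out, on a linear axis; colour gives the place of the hairpins and the symbol whether the miRNA was detected on any array. The 8 detected members are miR-467f, miR-466f-3p, miR-669f, miR-466i, miR-467b, miR-669c, miR-466c-5p and miR-466g, and 19 undetected members lie below 5; signals of different probes are not levels on 1 scale.

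The number of members detected per array was 0, 5 and 6 of 35 at day 0, 8 and 5 at day 1, and 3, 4 and 2 at day 6. These are 0%, 14.3% and 17.1% at day 0, 22.9% and 14.3% at day 1, and 8.57%, 11.4% and 5.71% at day 6. Among the 572 other mouse miRNAs (members and the 4 star strands left out) the share detected was 10.7%, 31.8% and 37.1% at day 0, 33.9% and 25.3% at day 1, and 29.7%, 30.6% and 29.4% at day 6. Members were thus detected in a lower share than the other miRNAs on each of the 8 arrays. Every day 6 array had fewer detected members than either day 1 array, while the share of other miRNAs on the day 6 arrays lay between the shares on the 2 day 1 arrays. No test was made of these shares, since members share probes of like sequence.

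**Figure D2:**
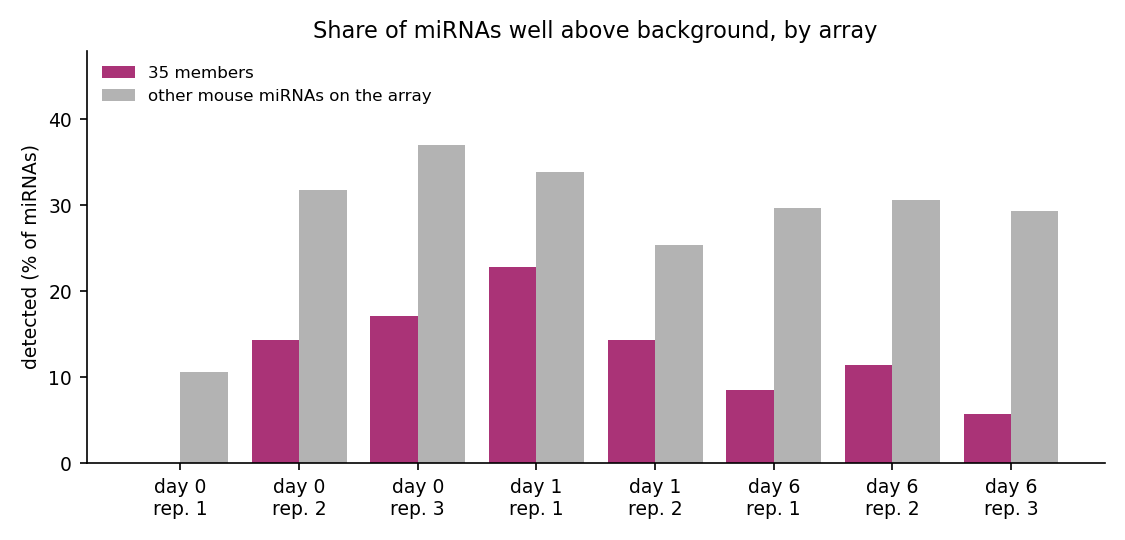
Share of miRNAs detected (percent, linear axis from 0) on each array, for the 35 members and for the 572 other mouse miRNAs. Members lie between 0% and 22.9% and stand below the other miRNAs on every array; the 3 day 6 arrays show 8.57%, 11.4% and 5.71% of members.

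Day 0 replicate 1 stood apart from the other arrays. The medians of the tested members and some of their folds are given with and without it. The spread of its negative control spots (scaled median absolute deviation) was 30.2, against 2.54 to 3.88 on the other 7 arrays, and its lowest detected scaled intensity was 200.4, against 11.8 to 24.4. No member was detected on it, so that its member values are readings not well above background. On it 73 of 92 member probes read below 0, against 44 to 63 on the other 7 arrays. All 8 arrays lay on 1 slide with 1 scan date, so neither varied between days. No member spot was saturated, and 2% to 5.14% of member spots per array were left out as outliers. All 4 oligodendrocyte markers (miR-219, miR-338-3p, miR-338-5p and miR-138) were detected on at least 1 array of every day, with summed scaled intensities of 148 to 3468 at day 0, 243 to 2536 at day 1 and 874 to 2610 at day 6. All 3 neuron markers were also detected, with sums of 227 to 421, 296 to 338 and 129 to 1122, as were all 3 microglia and leukocyte markers, with sums of 1098 to 2093, 960 to 1209 and 793 to 1325. Of the 4 fibroblast and mural markers 3 were detected, with sums of 67.9 to 105, 82.3 to 103 and 64.4 to 357, and miR-145 was not. The 2 erythroid and 3 muscle markers were detected on no array. The part of these other cells in the member signals was not tested, and in such bulk samples fewer cells of a type and less RNA per cell cannot be told apart.

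The 6 members detected on at least 3 arrays were tested in a fit over all 199 mouse miRNAs that passed the same filter, with values below a floor of 18.4 (4.20 on the log2 scale) raised to it. The filter passes a member that is high on some arrays only, so the 6 do not stand for the 35. Their values follow, first for the members with a hairpin outside Sfmbt2.

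miR-467f, whose AC repeat is shown above, was detected on 7 arrays. Its scaled intensity was 123 (not well above background), 54.8 and 26.9 at day 0, 102 and 85.7 at day 1, and 34.3, 48.4 and 33.1 at day 6. Both day 1 arrays stood above all 3 day 6 arrays, while day 0 spanned both. Without day 0 replicate 1, the other day 0 arrays (54.8 and 26.9) lay below both day 1 arrays and still spanned day 6. On the log2 scale miR-467f averaged 5.82 ± 1.10 at day 0 (SD, n = 3, with the undetected reading of replicate 1), 6.55 ± 0.18 at day 1 (n = 2) and 5.25 ± 0.30 at day 6 (n = 3). The log2 fold of day 6 against day 1 was -1.30 ± 0.56 (SE), with an adjusted p of 0.549 in limma. Its second probe, detected on 5 arrays, gave -1.40 for the same fold.

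miR-466i was detected on 5 arrays. Its scaled intensity was 31.2 (not well above background), 31.4 and 12.4 at day 0, 54.8 and 43.3 at day 1, and 12.7 (not well above background), 25.7 and 13.0 (not well above background) at day 6. Both day 1 arrays stood above every array of day 0 and day 6 after scaling. Before scaling, day 0 replicate 2 (39.9) read above day 1 replicate 2 (35.9). The log2 mean was 4.71 ± 0.44 at day 0 (SD, n = 3), 5.61 ± 0.24 at day 1 (n = 2) and 4.36 ± 0.28 at day 6 (n = 3). Of these arrays, 1 of day 0 and 2 of day 6 were raised to the floor, so these means, SDs and folds depend on it. The log2 fold of day 6 against day 1 was -1.24 ± 0.33 (SE), with an adjusted p of 0.160 in limma, the lowest of any member in any of the 4 comparisons. Day 1 against day 0 gave 0.89 ± 0.33 with an adjusted p of 0.410. A second probe was detected on 1 array and gave -0.49 for day 6 against day 1.

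miR-466f-3p comes from hairpins both within Sfmbt2 and outside, which the array cannot tell apart. It was detected on 5 arrays, with a scaled intensity of 74.6 (not well above background), 33.5 and 13.7 at day 0, 62.0 and 56.2 at day 1, and 19.8 (not well above background), 29.5 and 18.3 (not well above background) at day 6. As for miR-467f, both day 1 arrays stood above all day 6 arrays and day 0 spanned them. Without day 0 replicate 1, the other day 0 arrays (33.5 and 13.7) lay below both day 1 arrays and still spanned day 6. miR-466f-3p averaged 5.16 ± 1.01 at day 0 (SD, n = 3, with the undetected reading of replicate 1), 5.88 ± 0.10 at day 1 (n = 2) and 4.46 ± 0.37 at day 6 (n = 3), on the log2 scale. Of these arrays, 1 of day 0 and 1 of day 6 were raised to the floor. The log2 fold of day 6 against day 1 was -1.42 ± 0.54 (SE), with an adjusted p of 0.452 in limma. Its 4 probes differed in detection: 1 was detected on 5 arrays, 1 on a single array and 2 on none. For day 6 against day 1 the probe detected on 1 array gave a log2 fold of -0.54, and both undetected probes gave 0, at the floor. Below the floor, 1 undetected probe read 12.4 and 10.5 at day 1 and at most 6.75 at day 6. The days overlapped on the other undetected probe. The opposite strand of the same hairpins, miR-466f-5p, was detected on no array, and its scaled intensity was at most 2.15.

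miR-669f, from within Sfmbt2, was detected on 7 arrays with both of its probes. Its scaled intensity was 35.1 (not well above background), 53.6 and 34.8 at day 0, 61.3 and 47.1 at day 1, and 42.3, 38.3 and 37.3 at day 6. The 3 day 6 arrays lay below both day 1 arrays and inside the range of day 0. The log2 fold of day 6 against day 1 was -0.45 ± 0.29 (SE), with an adjusted p of 0.770 in limma. Under scaling to control probes its fold of day 6 against immature cells turned to 0.13, against -0.25 in the scaling used here. That scaling also raised the median fold over all tested miRNAs, given in the closing section, and miR-669f lay below that median under both.

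miR-669c, also from within Sfmbt2, was detected on 3 arrays. Its scaled intensity was 60.0 and 16.0 (both not well above background) and 13.9 at day 0, 21.7 and 26.5 at day 1, and 12.8, 11.9 and 14.6 at day 6. None of the 3 day 6 values was well above background, so day 6 has only a bound there. Both day 1 arrays detected it, and their log2 mean was 1.13-fold above the mean of the day 6 limits. This bound holds for the means only, since the limit on day 6 replicate 3 (23.5) lay above day 1 replicate 1 (21.7). The fitted log2 fold of day 6 against day 1 was -0.38 (adjusted p of 0.953 in limma), with a confidence interval from -1.53 to 0.77. Against day 0 no bound is given, since the 1 array of 3 that detected it read below the floor. The fitted log2 fold of day 6 against day 0 was -0.57 with all arrays (adjusted p of 0.617 in limma) and 0 without the undetected reading of day 0 replicate 1.

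miR-467b, from within Sfmbt2, was detected on 4 arrays. Its scaled intensity was 1.25 (not well above background), 30.6 and 21.8 at day 0, 25.6 and 12.9 (not well above background) at day 1, and 27.7, 15.01 (not well above background) and 22.1 (not well above background) at day 6. The 3 days overlapped throughout. The log2 fold of day 6 against day 1 was 0.05 ± 0.33 (SE), with an adjusted p of 0.990 in limma, and its sign turned in other settings.

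**Figure D3:**
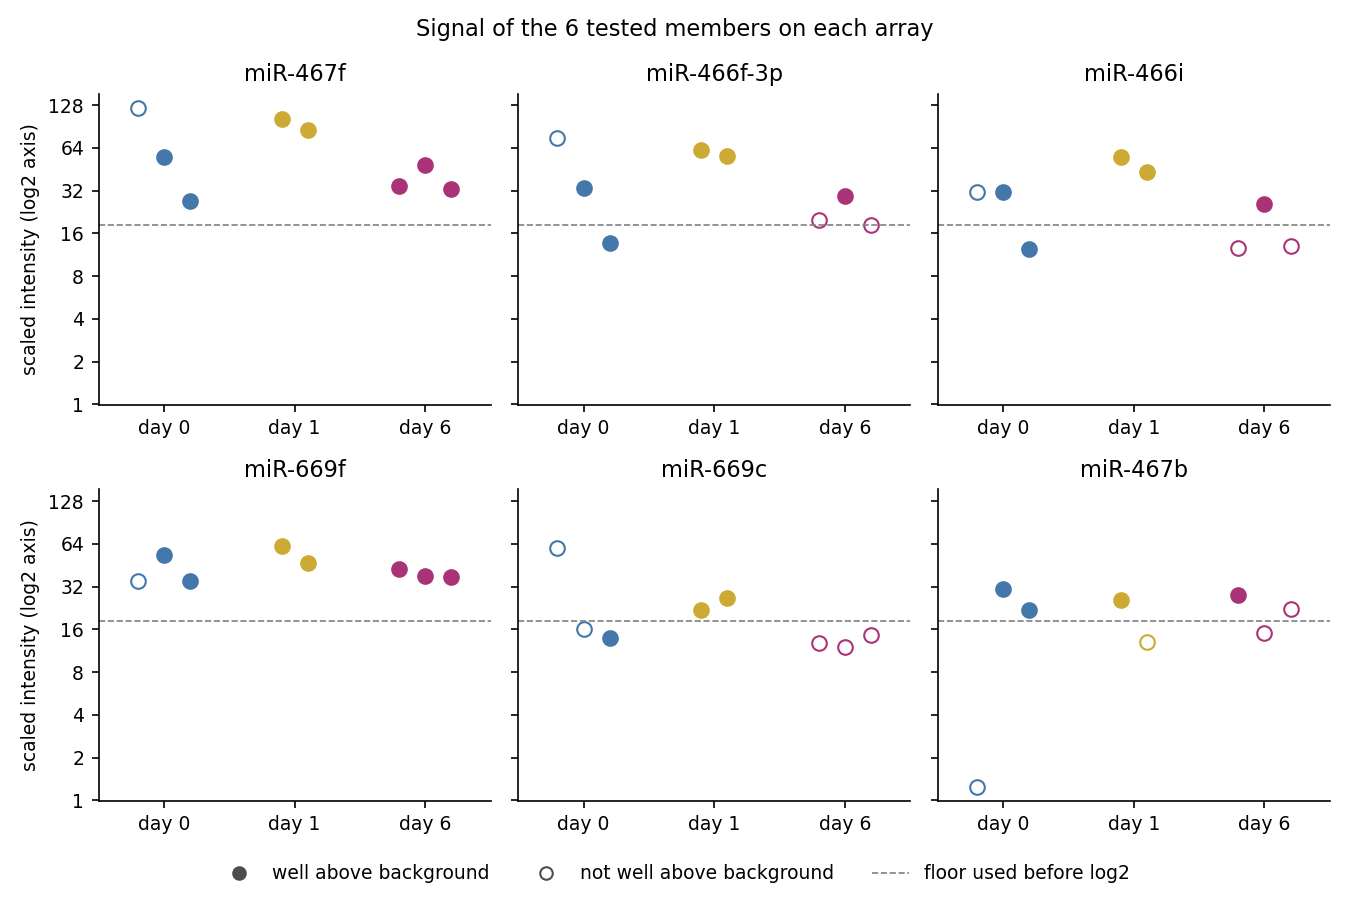
Scaled intensity (log2 axis) of the 6 tested members on each array, by day in culture; filled points were well above background, open points were not, and the dashed line marks the floor of 18.4. Both day 1 arrays of miR-467f, miR-466f-3p, miR-466i, miR-669f and miR-669c stand above all 3 day 6 arrays, and the open day 0 points are those of replicate 1, plus replicate 2 for miR-669c.

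For mature against immature cells, where the immature mean weights day 0 and day 1 equally, 0 of the 6 tested members passed the test at an adjusted p under 0.05 in limma, where 2.01% of all 199 tested miRNAs passed. At an unadjusted p under 0.05 there were 2, miR-466i and miR-466f-3p, where 12.1% of all tested miRNAs (24 of 199) lay under it. The log2 folds were -1.06 ± 0.43 for miR-466f-3p (SE, adjusted p of 0.340 in limma), -0.93 ± 0.45 for miR-467f (0.474) and -0.80 ± 0.27 for miR-466i (0.302). These folds and the count of 2 take in the undetected readings of day 0 replicate 1. For miR-466f-3p and miR-467f that reading was the highest of any array. The other folds were -0.47 for miR-669c (at the floor on every day 6 array, and -0.19 without day 0 replicate 1), -0.25 for miR-669f and 0.0035 for miR-467b, with adjusted p of 0.725 or more. The median over the 6 was -0.64, beside 0.042 over all 199. In each of these 6 members the day 6 arrays overlapped the 5 immature arrays, where among all 199 miRNAs 4.02% were lower and 3.52% higher with no overlap. With the limma normexp background correction the median was -0.14, and without day 0 replicate 1 it was -0.48.

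For day 6 against day 0, 0 of the 6 members passed in limma, where 4.02% of all tested miRNAs passed. None had an unadjusted p under 0.05, where 13.6% of all tested miRNAs (27 of 199) lay under it. The 6 log2 folds lay between -0.70 (miR-466f-3p) and -0.04 (miR-669f and miR-467b), with adjusted p of 0.617 or more in limma. In each member the arrays of the 2 days overlapped, where 6.03% of all tested miRNAs were lower and 10.6% higher with no overlap. The median was -0.46, beside 0.034 over all tested miRNAs. The day 0 arrays decide this value: without replicate 1 the median was -0.15 and without replicate 3 it was -0.73. Without replicate 1, miR-467f had a fold of -0.01, miR-466f-3p of -0.17 and miR-466i of -0.22.

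For day 6 against day 1, 0 members passed in limma, where 0% of all tested miRNAs passed. At an unadjusted p under 0.05 there were 3 members, miR-466i, miR-466f-3p and miR-467f, where 8.54% of all tested miRNAs (17 of 199) lay under it. These 3 folds were the lowest of all 199, with miR-466f-3p at rank 1, miR-467f at rank 2 and miR-466i at rank 3. The ranks hold for the brightest probe of each miRNA, and miR-204 and miR-574-5p followed at -1.21 each. Other probes gave -0.54, 0 and 0 for miR-466f-3p, -0.49 for miR-466i and -1.40 for miR-467f. The day 6 arrays lay below both day 1 arrays without overlap in 5 of the 6 members, all but miR-467b, where 17.1% of all tested miRNAs (34 of 199) did so, and 0 of the 6 were higher without overlap, where 10.1% were. This count is not independent of the detection filter. miR-669c passed it through day 0 and day 1 arrays alone and sat at the floor on all 3 day 6 arrays. miR-466i and miR-466f-3p were each detected on 1 of the 3 day 6 arrays. The median was -0.85 over the 6 and 0.053 over all 199. With the normexp background the median was -0.22 and 3 of the 6 were lower without overlap. Day 0 and day 1 serve in other comparisons too, so the folds of the 4 comparisons are not independent of each other.

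For day 1 against day 0, 0 members passed in limma, where 1.51% of all tested miRNAs passed. At an unadjusted p under 0.05 there was 1 member, miR-466i, where 8.04% of all tested miRNAs (16 of 199) lay under it. After scaling, miR-466i was the single member whose day 1 arrays lay above all day 0 arrays, where 10.1% of all tested miRNAs did so. Before scaling, its arrays of these days overlapped. No member had day 1 arrays below all day 0 arrays, where 3.02% of all tested miRNAs did. The log2 folds were 0.73 for miR-467f and 0.72 for miR-466f-3p (both with an adjusted p of 0.938 in limma), 0.41 for miR-669f, -0.09 for miR-467b and -0.19 for miR-669c. The median was 0.57 over the 6 members, beside -0.062 over all 199. Without day 0 replicate 1 the folds were 1.28 for miR-467f, 1.25 for miR-466f-3p and 1.02 for miR-466i, and that of miR-669c turned to 0.38. The median was 0.70 without day 0 replicate 1 and 0.21 without day 0 replicate 3.

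With day 0 replicate 1 left out, both day 1 arrays stood above the other 5 arrays in 4 of the 6 tested members (miR-467f, miR-466i, miR-466f-3p and miR-669c), and in 5.53% of all tested miRNAs (11 of 199). This ordering was chosen after the values were seen and was not tested, and miR-669c passed the filter through day 0 and day 1 arrays alone. Under other scaling, background, probe, floor, filter and outlier settings the count of members was 3 to 5.

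**Figure D4:**
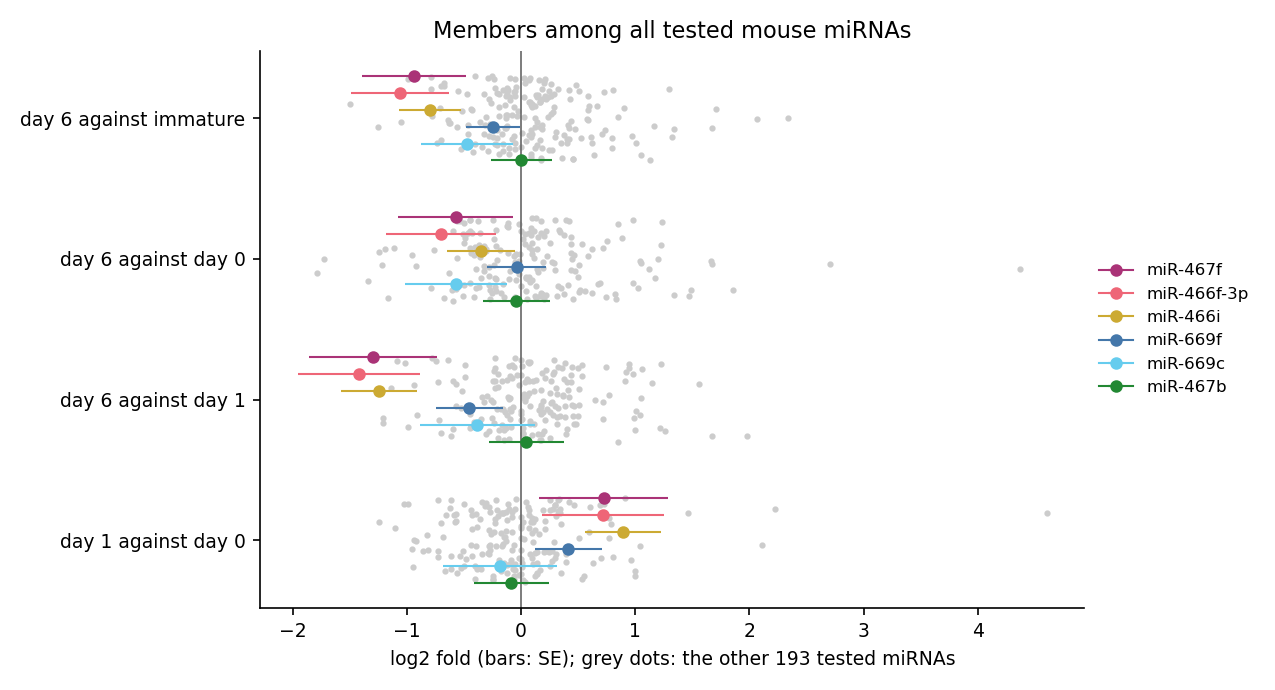
Log2 folds of the 6 tested members (coloured, bars show SE) and of the other 193 tested miRNAs (grey, spread vertically for sight) in the 4 comparisons, the day named first over the day named second. In day 6 against day 1 the folds of miR-466f-3p (-1.42), miR-467f (-1.30) and miR-466i (-1.24) lie at the left edge of all tested miRNAs, while miR-467b lies at 0.05. Each fold is that of the brightest probe.

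The 2 miRNAs outside the set found among the 162 matched names to hold the same kind of repeat, printed above, were both detected on 7 arrays. miR-574-5p had scaled intensities of 110 (not well above background), 62.6 and 49.1 at day 0, 116 and 167 at day 1, and 53.6, 68.6 and 59.7 at day 6. Its log2 fold of day 6 against day 1 was -1.21 ± 0.38 (SE, adjusted p of 0.268 in limma). miR-1187 had scaled intensities of 18.4 (not well above background), 37.5 and 28.0 at day 0, 63.8 and 85.4 at day 1, and 30.3, 38.8 and 35.8 at day 6. Its log2 fold of day 6 against day 1 was -1.09 ± 0.35 (SE, adjusted p of 0.268 in limma). In both, each day 1 array stood above every array of the other days, the ordering found for miR-466i after scaling, and neither passed the test. Among all 199 tested miRNAs, 10.1% had both day 1 arrays above all day 0 arrays, and 17.1% had all day 6 arrays below both day 1 arrays. With day 0 replicate 1 left out, both day 1 arrays stood above the other 5 arrays in 5.53% (11 of 199). Whether the repeat bears on this ordering was not tested. Of the 4 members with a matched sequence, the other 2 found to hold such a run, miR-467g and miR-466k, were detected on no array.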

How the data were processed

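Total RNA taken with Trizol was labelled with Cy3 and hybridised to 1-colour Agilent miRNA arrays, per the labels' protocols. Spot files were deposited as written by Agilent Feature Extraction 9.5, per the file headers, and hold background-subtracted intensities on a linear scale that can fall below 0. The submitters' value table holds the same intensities (largest difference 0), neither log-transformed, centred nor scaled between arrays, with column medians of -7.30, 2.71 and 3.03 (day 0), 3.01 and 0.720 (day 1), and 2.70, 1.65 and 1.73 (day 6).

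Outlier and control spots were dropped and each probe took the mean of its spots. Arrays were scaled by the 75th percentile over probes detected on all arrays, a floor at the 5th percentile of detected values (18.4) was set, and log2 was taken. The brightest probe stood for a miRNA. Folds against floor values depend on the floor. Mouse miRNAs detected on at least 3 of 8 arrays (199 of 611) were fitted in R 4.3 with limma 3.58 (1 mean per day, eBayes, two-sided) and adjusted by Benjamini-Hochberg. The procedure was tested on simulated data.

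All tested members were named with their values, the others by arrays detected or counts. Members and lists were chosen with earlier results of these data known. A bound for an undetected day takes, per array, the higher of the probe's own signal and the lowest detected signal. Marker sums counted values below 0 as 0. Sequences are from RefSeq (GRCm38.p6), matched by exact name for 162 of 611 array miRNAs. Whether replicate numbers pair the samples could not be decided. Deviations of same-numbered arrays from their day mean correlated at r from -0.71 to 0.32 across tested miRNAs (7 pairs). For arrays with different numbers r lay between -0.32 and 0.71 (14 pairs). On the day with the fewest arrays the deviations mirror each other, so r there takes opposite signs by construction. Scaling, background, probe summary, floor, filter, outlier, block, moderation, sample and leave-one-out settings were varied. Python 3.11 and matplotlib 3.10 drew the figures. The number of arrays limits the precision.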

Additional observations from a re-analysis of the deposited data

How the results depend on the processing

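In each setting that could be run, 0 members were called in every comparison, with adjusted p of 0.104 or more in limma. The folds of miR-466f-3p, miR-466i and miR-467f for day 6 against day 1 stayed below 0 in every setting run, between -1.63 and -0.40, -1.59 and -0.34, and -1.57 and -0.50, while the sign of miR-467b turned in some. With the normexp background, the median of the tested members was -0.14 for day 6 against immature cells and -0.22 for day 6 against day 1, and 3 members were lower without overlap. With the 75th percentile of all probes, the median for day 1 against day 0 was 1.01. With no detection filter, the median over all 35 members was 0 in all 4 comparisons, since most members then sit at the floor. Leaving out each array in turn (without 1 replicate) gave medians from -0.77 to -0.48 for day 6 against immature cells, -0.73 to -0.15 against day 0, -1.03 to -0.79 against day 1, and 0.21 to 0.70 for day 1 against day 0, and the count lower without overlap was 5 each time. Scaling to control probes moved the median of all tested miRNAs to 0.39, 0.33, 0.44 and -0.15 in these 4 comparisons, where the members had -0.48, -0.20, -0.57 and 0.48, and without scaling it moved to -0.28, -0.44, -0.14 and -0.29, where the members had -0.66, -0.49, -0.88 and 0.30. With the replicate block, the member medians were -0.56, -0.46, -0.68 and 0.38, again with 0 calls. The causes were not tested. A filter for detection on all 8 arrays left 0 members, and a fit on the days compared alone is the same fit for day 6 against immature cells. Signals of most members lie near background, which limits what can be seen of them.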
